A study of Arabidopsis thaliana with 4 samples.

Results

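Small heat shock proteins are chaperones that work without ATP. Each carries an alpha-crystallin domain, assembles into oligomers, and holds unfolding proteins in a soluble state until HSP70 and HSP100 machines can refold them. In plants the family is spread over the cytosol and most organelles. Heat shock transcription factors switch most of its genes on in heat, many of them are low in leaves of unstressed plants, and some accumulate in maturing seeds, where abscisic acid (ABA) also acts. The family described here was a set of 10 loci of Arabidopsis thaliana: AT4G21870, whose product resembles a small heat shock protein, and 9 other small heat shock protein loci. The array's annotation named a probe set, 1 each, for 6 of the 10, out of 11371 genes named in all. These 6 were AT4G21870, HSP22.0 (AT4G10250), HSP15.7 (AT5G37670), AT1G59860, AT1G07400 and AT2G29500. The other 4 loci, AT1G53540, HSP17.6II, HSP17.6A and HSP23.6-MITO, had no probe set named here and were not analysed here.

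All plants were wild type of the Col-0 strain, 14 days old, raised on plates of MS medium under 24 h light. One group was submerged for 5 min in a solution of 100 uM ABA with MS basal salts and 0.1% Tween 20, a wetting agent, and the other in mock solution, labelled MS-Tween. Shoots were cut from the roots 4 h after the treatment, pooled at 20 to 24 per replicate, and hybridised to 1 array per pool, with 2 biological replicates per treatment. No plants were heated, so the levels below are those of unheated shoots after a dip.

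Of the 6 named genes, 1 passed the test as lower and 1 as higher after ABA, as did 19.6% and 3.97% of all probe sets. AT4G21870 lay far above the noise on both mock arrays and below it on both ABA arrays. AT1G07400 did the reverse, reading near 0 in mock shoots and rising above the noise after ABA. The remaining 4 genes, HSP22.0, HSP15.7, AT1G59860 and AT2G29500, did not pass the test. HSP15.7, AT1G59860 and AT2G29500 lay near the noise in both groups. HSP22.0 read near 0 in mock shoots and near the noise or below it after ABA.

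The test for this was limma, fitted over 19371 probe sets on the scale log2(intensity + 16), with Benjamini-Hochberg adjustment and a threshold of 0.05. Intensities are the authors' linear values, and those below 0 were read as 0 before the 16 was added. Of the 6 genes, 1 fell and 1 rose. Over all tested probe sets 23.6% were called, 19.6% as lower and 3.97% as higher, so a count of 2 called in 6 genes does not stand apart from the array as a whole. The median log2 change was 0.011 over the 6 genes and -0.13 over all probe sets. With 2 arrays against 2 an exact permutation test of a single gene cannot give a two-sided p below 0.333, so each call leans on the spread that limma pools over all probe sets.

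AT4G21870 read 4.78 and -0.640 in ABA shoots and 72.5 and 97.3 in mock shoots. Both mock values lay far above both ABA values, and the distance between the groups exceeded the spread within either. The means were 2.07 ± 3.84 in ABA and 84.9 ± 17.5 in mock shoots (SD, n = 2 arrays each). The log2 change was -2.46 (SE 0.22, 95% interval -3.20 to -1.71, limma adjusted p = 0.0247). It was the second largest fall among the 19371 probe sets.

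The size of that fall has only a lower limit, because neither ABA array showed a signal above its noise. The noise of an array was taken here as the size of its 1st percentile over the tested probe sets, and lay between 7.54 and 8.76 on the 4 arrays. With each ABA value set to the noise of its array, and no constant added, AT4G21870 was at least 10.3-fold lower after ABA. This limit compares group means of the intensities as deposited, on which the arrays did not share a level. It carries no replicate error and would move with another scaling. The fitted log2 change depended on the constant added: it was -1.16 for a pseudocount of 64 and -5.14 for 1, where the call was lost (limma adjusted p = 0.0814). Its rank among falls moved from the first with a pseudocount of 1 to place 24 with 64.

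AT1G07400, a small heat shock protein locus, read 17.7 and 20.2 in ABA shoots and 1.43 and 0.0214 in mock shoots. Both ABA values were above the noise and both mock values were below it. The means were 18.95 ± 1.75 in ABA and 0.728 ± 0.999 in mock shoots (SD, n = 2 arrays each). The log2 change was 1.06 (SE 0.070, 95% interval 0.83 to 1.30, limma adjusted p = 0.0200). Against the noise of the mock arrays, and on the intensities as deposited, the gene was at least 2.37-fold higher after ABA. This was a rise to a dim signal, and with every intensity under 16 set to 16 it was no longer called (log2 change 0.24, limma adjusted p = 0.278). With a pseudocount of 1 it also missed the threshold (log2 change 3.66, limma adjusted p = 0.0508).

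HSP22.0, whose protein resides in the endoplasmic reticulum, read 7.92 and 3.39 in ABA shoots and 0.593 and -2.63 in mock shoots. The ABA values were the higher ones, but only the first was above the noise of its array. The log2 change was 0.40 (95% interval -0.041 to 0.85, limma adjusted p = 0.144). HSP15.7, whose protein is found in peroxisomes, read 8.44 and 4.94 in ABA shoots and 9.44 and 6.49 in mock shoots. These ranges overlapped, within a few units of the noise. The log2 change of HSP15.7 was -0.080 (95% interval -0.49 to 0.33, limma adjusted p = 0.709).

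AT1G59860 read 7.15 and 4.05 in ABA shoots and 6.95 and 10.7 in mock shoots. Its groups overlapped, and only the highest value, in mock shoots, exceeded the noise of its array. Its log2 change was -0.20 (95% interval -0.63 to 0.23, limma adjusted p = 0.379). AT2G29500 read 10.7 and 14.68 in ABA shoots and 12.5 and 8.91 in mock shoots, above the noise on all 4. The groups overlapped here too, and the log2 change was 0.10 (95% interval -0.30 to 0.51, limma adjusted p = 0.614). For these 4 genes the intervals hold for this scale only and do not set a limit of detection. With a pseudocount of 1 HSP22.0 alone left its interval, at a log2 change of 2.31, and was not called (limma adjusted p = 0.0894). In all, the arrays of the groups did not overlap for 3 of the 6 genes, against 65.8% of all probe sets. For 1 gene the ABA arrays were the lower ones, as in 50.8% of all probe sets, and for 2 the higher ones, as in 15.0%.

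**Figure D1:**
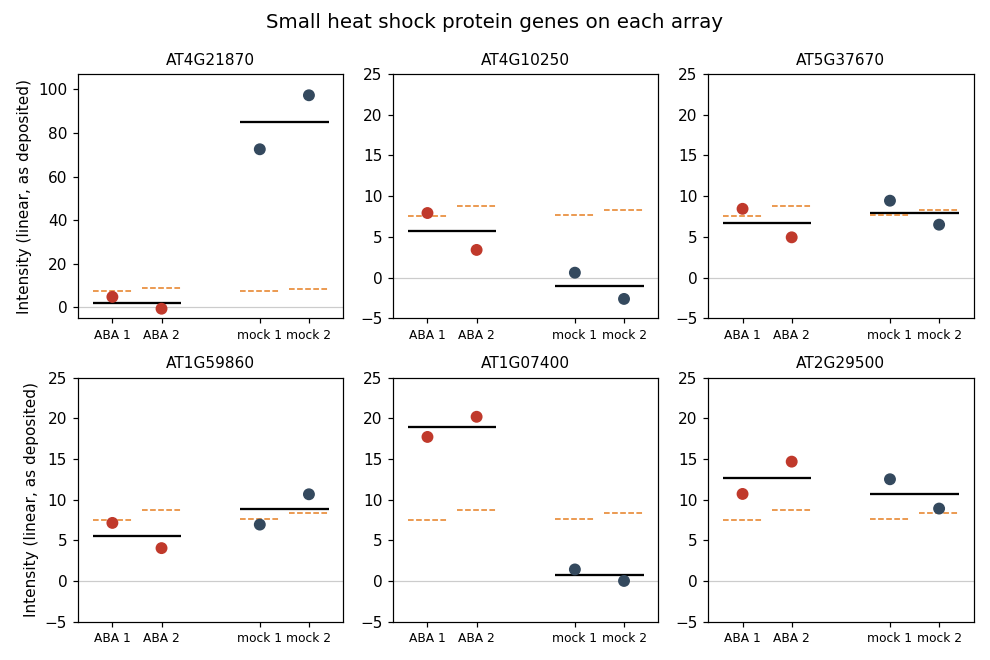
Intensity (linear, as deposited) of the 6 named small heat shock protein genes on each array, with ABA arrays in red and mock arrays in dark blue. Solid lines are group means (n = 2) and dashed orange lines the noise of each array; AT4G21870 is above the noise only in mock shoots and AT1G07400 only in ABA shoots, and the vertical axis of AT4G21870 spans a wider range than the others.

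The arrays did not share a level. Median intensity over tested probe sets was 12.4 and 12.9 in ABA and 16.9 and 17.0 in mock shoots, and of the called probe sets 83.2% were lower after ABA. Quantile normalization, which makes the arrays share 1 distribution, left 53.2% of the calls lower. After it AT4G21870 had a log2 change of -2.30 (limma adjusted p = 0.0441) and AT1G07400 one of 1.20 (limma adjusted p = 0.0284), so both calls were also made there, where 9.87% of probe sets were called, 5.24% as lower and 4.62% as higher. Dividing each array by its median and scaling by the spiked control sets gave log2 changes of -2.26 and -2.68 for AT4G21870 and 1.20 and 0.93 for AT1G07400, all past the threshold.

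How often a probe set was called depended on its brightness. AT4G21870 lay in bin 4 of 5 by mean intensity (5 being the brightest), where 36.2% of probe sets were called lower and 5.27% higher. AT1G07400 and AT2G29500 lay in bin 3, with 19.0% lower and 3.54% higher. HSP22.0, HSP15.7 and AT1G59860 lay in bin 2, with 5.19% lower and 2.07% higher. No probe set of the 6 genes carries the name suffix that marks 1735 other sets as able to bind related transcripts. Probe sequences were not used here, so binding of transcripts from close relatives was not tested.

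**Figure D2:**
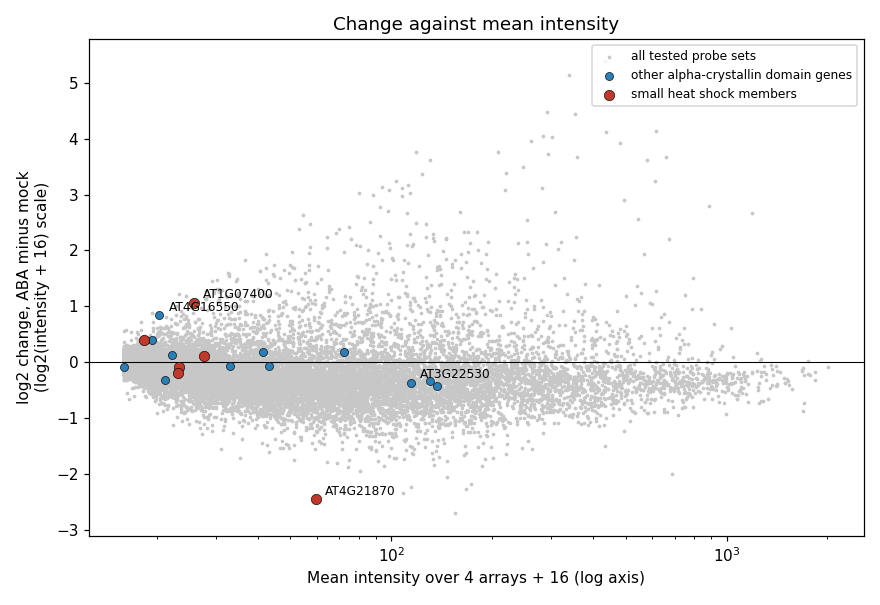
Log2 change (ABA minus mock, log2(intensity + 16) scale) against the mean intensity over 4 arrays plus 16 (log axis) for all 19371 tested probe sets in grey, the 6 small heat shock members in red and 12 other alpha-crystallin domain genes in blue. AT4G21870 lies at -2.46, near the lower edge of the cloud at its brightness, and AT1G07400 at 1.06, near the upper edge.

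The ABA arrays carried the marks of an ABA response. KIN1, a cold- and ABA-induced gene, read 531 and 524 on them against 25.8 and 24.8 in mock shoots, a log2 change of 3.72. COR15A, whose product protects chloroplast membranes in freezing, and LEA4-5, a late embryogenesis abundant protein gene, changed by 3.68 and 5.38. Green tissue was evident, as the 7 shoot markers named here read 288 or more on every array. Their summed intensity was 6735 to 6928 in ABA and 9362 to 10130 in mock shoots. Of 8 root markers 2 were named. Their summed intensity was 106 to 122 in ABA and 279.9 to 321 in mock shoots, nearly all from PYK10, which encodes a beta-glucosidase abundant in roots, while EXPA7, a root hair gene, stayed below 2 on every array, under the noise, although its log2 change of 0.12 was called (limma adjusted p = 0.0491). On the intensities as deposited, PYK10 fell (log2 change -1.30), as did 6 of the 7 shoot markers, where 36.3% of probe sets of the brightest bin were called lower. The arrays did not share a level there, and these sums and changes would move with another scaling. The part of either marker set in the fall of AT4G21870 was not tested. In whole shoots, fewer cells that express a gene and less RNA per cell cannot be told apart.

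Beyond the 10 loci, a list of 24 other genes with an alpha-crystallin or related domain was examined, of which 12 were named here. In this list 1 gene rose, 1 fell and 10 did not pass, with a median log2 change of -0.075 and a range from -0.43 to 0.84. Over all probe sets 23.6% were called, so this count does not stand apart either. AT4G16550 read 12.9 and 12.3 in ABA shoots and -3.98 and -3.82 in mock shoots. As with AT1G07400, ABA shoots were above the noise and mock shoots below it. On the intensities as deposited the gene was at least 1.58-fold higher (log2 change 0.84, SE 0.023, limma adjusted p = 0.0166). All 4 values lay under 16, so with a floor of 16 its change was 0 and not called, while with a pseudocount of 1 it was 3.76. AT3G22530 read 86.3 and 81.2 in ABA shoots and 112 and 113 in mock shoots. The ABA values were the lower ones, by 0.37 on the log2 scale (limma adjusted p = 0.0270), but after quantile normalization the change was -0.094 and not called (limma adjusted p = 0.251). None of the 12 others fell as far as AT4G21870, but most were too dim to do so on this scale. Only AT2G19310, AT3G22530 and BOB1 (AT5G53400) were bright enough in mock shoots, with means of 130, 113 and 141. Their log2 changes were -0.33, -0.37 and -0.43, the last being the lowest of the list.

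Of the genes that regulate small heat shock proteins or work with them, few were named. None of 21 heat shock factors, 7 HSP90 genes and 11 HSP100 and chaperonin genes had a probe set named here, and they were not analysed here. Of 15 HSP70 and HSP110 genes 1 was named. AT3G09440, from this list, read 162 and 203 in ABA shoots and 278 and 359 in mock shoots, and its log2 change of -0.75 did not pass (SE 0.20, limma adjusted p = 0.103). It was called lower under spike scaling (-1.20, limma adjusted p = 0.0293) and in fits on fewer probe sets, without the dim ones (0.00435) or without those at 0 or below on every array (0.0201). Its groups did not overlap, though replicates within each differed widely. Of 15 co-chaperone and other heat-induced genes 3 were named, of which 1 fell and 0 rose, against 19.6% of all probe sets called lower. Hop1, which encodes a co-chaperone that links HSP70 to HSP90, read 40.2 and 46.5 in ABA shoots and 85.3 and 97.6 in mock shoots. Both ABA arrays were lower, by 0.86 on the log2 scale (SE 0.098, limma adjusted p = 0.0316), and after quantile normalization the change of -0.56 was not called (limma adjusted p = 0.0759).

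**Figure D3:**
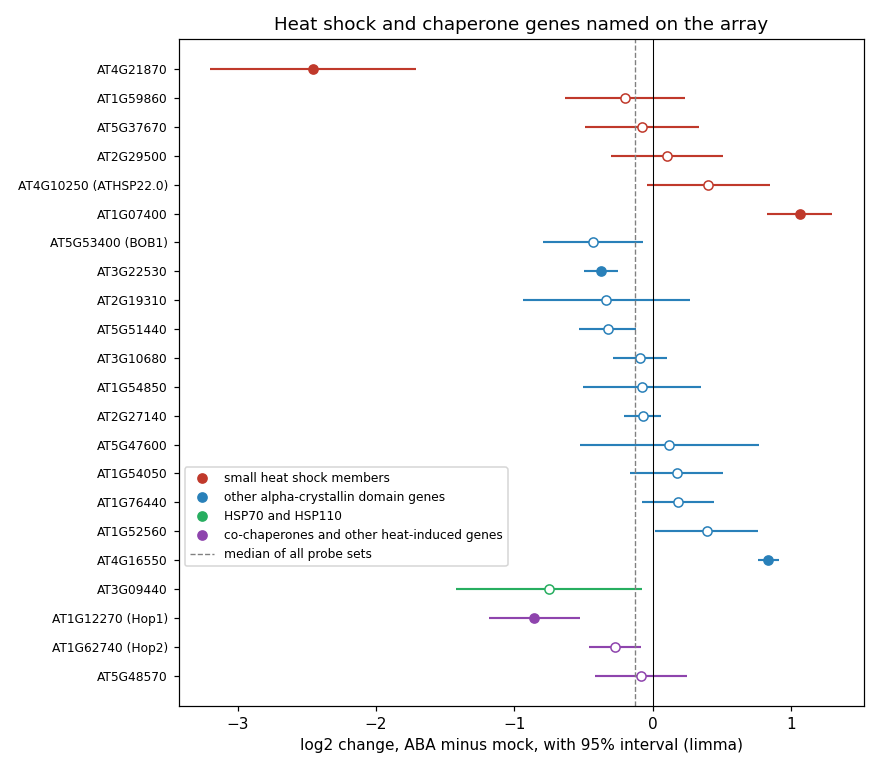
Log2 change (ABA minus mock) with its 95% interval from limma for the 22 heat shock and chaperone genes named on the array, by list; filled points passed the threshold and the dashed line is the median of all probe sets (-0.13). On this scale AT4G21870 (-2.46) and AT1G07400 (1.06) lie outside the range of the 12 other alpha-crystallin domain genes (-0.43 to 0.84). With a pseudocount of 1 the log2 change was 3.76 for AT4G16550, of that list, and 3.66 for AT1G07400. The place of AT1G07400 above the range thus depends on the constant added. Most of those 12 were too dim in mock shoots to fall as far as AT4G21870 on this scale.

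The pattern of AT4G21870 over the 4 arrays was compared with those of 2377 other called genes, by the Euclidean distance between log2 profiles that were each centred on their own mean. With 4 arrays, this measures little beyond the size of the fall and the spread of the replicates. The nearest was AT1G06830, a glutaredoxin gene, at a distance of 0.26. It read 21.0 and 18.8 in ABA shoots and 152 and 179 in mock shoots, above the noise throughout. AT5G63180, of the pectin lyase-like family, followed at 0.63 and AT1G73600, a methyltransferase gene of phosphocholine synthesis, at 0.65. AT1G27020 lay at 0.72 and AT1G66940 at 0.77. Their log2 changes ran from -1.76 in AT1G66940 to -2.34 in AT1G06830, and all 5 were above the noise on all 4 arrays, which AT4G21870 was not.

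**Figure D4:**
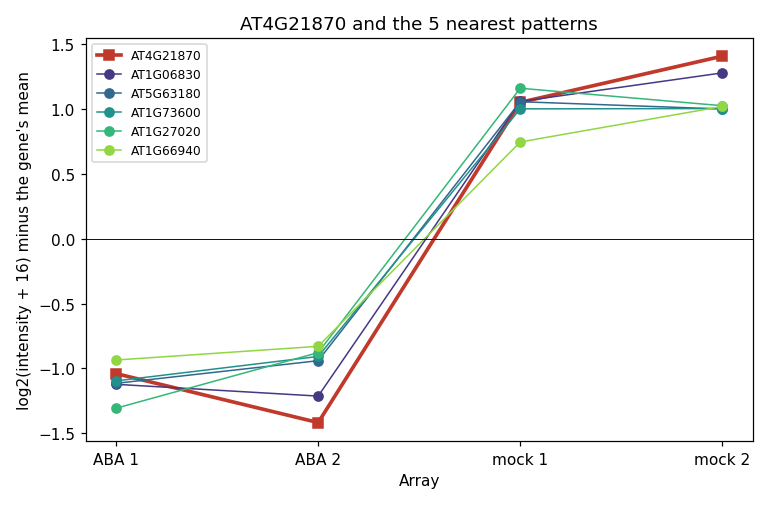
Centred profiles, log2(intensity + 16) minus each gene's own mean, of AT4G21870 (red squares) and the 5 called genes with the nearest pattern, on each of the 4 arrays. AT1G06830, at a distance of 0.26, runs closest to AT4G21870, and all 6 lie below their mean in ABA and above it in mock shoots.

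Genes beside the 6 loci in the gene order of the TAIR10.1 assembly were looked up, and 4 of 12 had a probe set named here. AT4G21865, next to AT4G21870, read 13.7 and 12.0 in ABA shoots and 19.3 and 19.9 in mock shoots. It fell by 0.30 on the log2 scale (limma adjusted p = 0.0399), and after quantile normalization its change of -0.093 was not called (limma adjusted p = 0.410). AT2G29510, next to AT2G29500, fell by 0.66 (limma adjusted p = 0.0245), and after quantile normalization its change of -0.37 was not called (limma adjusted p = 0.0647). AT4G10260, beside HSP22.0, had a change of 0.11 and ARLA1A, beside HSP15.7, one of -0.32, neither past the threshold. ARLA1A was called lower under spike scaling (-0.72, limma adjusted p = 0.0285) and among the brighter probe sets alone (limma adjusted p = 0.0361).

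Leaving out any 1 of the 4 arrays ended every call on the array in limma, those of AT4G21870 and AT1G07400 included, while 5780 to 6459 probe sets then had an unadjusted p under 0.05. The changes themselves stayed close, between -2.27 and -2.65 for AT4G21870 and between 1.0 and 1.12 for AT1G07400. Among the uncalled genes they ran from 0.25 to 0.55 for HSP22.0, from -0.31 to -0.091 for AT1G59860 and from 0.0031 to 0.20 for AT2G29500. The limma adjusted p then ran from 0.0977 to 0.126 for AT4G21870 and from 0.0925 to 0.111 for AT1G07400.

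**Figure D5:**
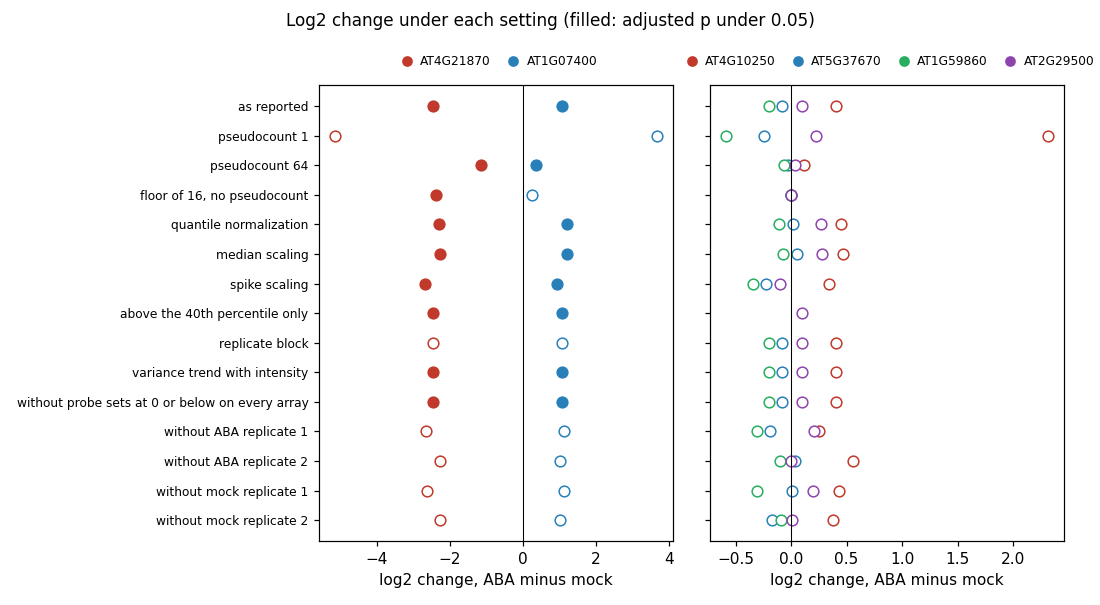
Log2 change (ABA minus mock) of AT4G21870 and AT1G07400 (left) and of the other 4 genes (right) under each processing setting; filled points had a limma adjusted p under 0.05. AT4G21870 stays below 0 and AT1G07400 above 0 in every setting shown, while HSP15.7 (AT5G37670) and AT2G29500 take both signs.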

How the data were processed

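Biotin-labelled amplified RNA from total RNA of shoot pools was hybridised to 1-colour arrays, per the labels' protocols. The authors deposited 1 linear intensity for each probe set on each array. How they corrected background and scaled the arrays, with which software, and which genome build the array follows is not given in these sources, and no coordinates are printed. Of 19658 probe sets, 287 control sets were left out. Probe sets were named by the platform's public annotation. TAIR10.1 gene identifiers updated 11547 names and locus codes 45, and 6 stayed as annotated. In all 11598 probe sets had 1 name, 0 had several and 7773 are unnamed here. For genes with several probe sets the brightest by mean over the 4 arrays was used.

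Negative intensities were read as 0 and log2 was taken after adding 16, so changes of dim genes are understated. The two-sided comparison of treatments used lmFit and eBayes of limma 3.58.1 (R 4.3.3), with treatment as the only term. The script was tested on simulated data. Precision is limited by the number of arrays, 2 per group, which have no read depth. The alternatives were other pseudocounts (1 and 64), a floor of 16, 3 other scalings, a filter on dim probe sets, a block for the replicate number, and leaving out each array.

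The members and gene lists were chosen with earlier results of these data known. All named members are described. From each further list the text names up to 3 called genes, largest change first, or 2 uncalled ones if no gene was called, and it names the 5 called genes nearest in pattern to AT4G21870. Neighbouring genes, the noise level, and the lower limits on fold change were chosen after the values were seen. Those limits carry no replicate error and hold for the scaling as deposited only.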

Additional observations from a re-analysis of the deposited data

How the results depend on the processing

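AT4G21870 kept its direction under every setting tried, and AT1G07400 and AT4G16550 did so except that AT4G16550 had no change with a floor of 16. AT4G21870 missed the threshold with a pseudocount of 1 (-5.14) and with the replicate number as a block (-2.46, limma adjusted p = 0.0845), and without 1 array its change was -2.65 to -2.27. Of the small heat shock genes, 2 were called as reported, 1 with a floor of 16, and 0 with a pseudocount of 1, with the replicate block, or without any 1 array. Over all probe sets 4574 were called as reported, 1576 with the floor, 1911 after quantile normalization, 1803 after median scaling (45.0% lower), 8610 under spike scaling (93.9% lower), 6872 among probe sets above the 40th percentile of intensity, and 0 with the replicate block or without 1 array (limma). With the block 7115 probe sets had an unadjusted p under 0.05. The labels give both groups replicates 1 and 2 without saying that a number marks a shared batch. Deviations of same-numbered arrays correlated at r = 0.039 across probe sets. This single correlation cannot show whether same-numbered samples shared a batch, so a shared batch was not settled. HSP15.7 turned positive after quantile normalization (0.019) and median scaling (0.052), and ran from -0.19 to 0.031 without 1 array. AT2G29500 turned negative under spike scaling (-0.098). AT4G10260 did so too (-0.058), and ran from -0.19 to 0.41 without 1 array, while ARLA1A (AT5G37680) turned positive after median scaling (0.042). The causes were not tested. Added settings, chosen after seeing the data, were a variance trend with intensity and leaving out the 1194 probe sets at 0 or below on every array. Both left the calls of the 6 genes as reported. None of the 6 genes had a further probe set to try. Signal near the noise or below it limits what can be said of the 4 uncalled genes.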
